A study of Canis lupus familiaris with 6 samples.

Results

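The AP-1 and immediate early factors described here are 10 genes chosen by symbol, FOS, FOSB, FOSL1, FOSL2, JUN, JUNB, JUND, EGR1, IER2 and MYC, out of 41401 gene symbols in the deposited tables. All 10 were present, and all 10 reached the mean of 1 FPKM required for testing, as did 12125 genes in all. FPKM divides the fragments of a gene by its length and by the size of the library, so levels of different genes can be compared. MDCK is an epithelial line from dog kidney. An siRNA against PRL1 was given to clone 1 (D7) and clone 2 (F22), both labelled with the genotype PRL2-/-; PRL1+/-, and to wild-type (WT) cells, and each line has 1 matching library that received control siRNA. RNA was taken 18 h after the second of 2 transfections in all 6 libraries, and the labels do not say how the mutant alleles were made or how the clones were grown.

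AP-1 is a dimer of basic leucine zipper proteins that binds a short DNA element in the promoters and enhancers of many genes. FOS proteins need a JUN protein as partner, whereas JUN proteins can also pair with each other. Members such as FOS, FOSB, JUNB, EGR1 and IER2 are transcribed within minutes to hours of growth factor, serum or stress signals. FOSL1 and MYC follow more slowly. For many of these genes the signal runs through ERK, JNK and p38 kinases acting on serum response factor and its partners. Many of their messages are short-lived, and the levels of those genes follow recent signalling. In kidney epithelial cultures the members are best known from the responses to mitogens, wounding and loss of cell contact.

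The siRNA target was measured first. PTP4A1, which encodes PRL1, was at 37.8, 37.8 and 33.1 FPKM with PRL1 siRNA in clone 1, clone 2 and WT cells, against 61.7, 69.9 and 63.5 FPKM with control siRNA in the same lines. It fell by 0.83 ± 0.05 log2 units over the 3 lines (SE, limma with the line as block, adjusted p = 0.00127). PTP4A2, which encodes PRL2, was at 69.1, 48.3 and 59.0 FPKM with PRL1 siRNA in clone 1, clone 2 and WT cells, against 80.4, 56.7 and 72.7 FPKM with control siRNA. It also fell, by 0.25 ± 0.04 over the 3 lines (adjusted p = 0.00572), a smaller change than that of PTP4A1, so the siRNA libraries differ from their controls in both genes. The labelled genotype of the clones does not show in either message. With control siRNA the clones minus WT cells gave -0.10 ± 0.31 log2 units for PTP4A2 (SE, n = 2 clones, limma without block, adjusted p = 0.920) and 0.05 ± 0.10 for PTP4A1 (0.873). Whether an allele gives a message without a protein cannot be read from FPKM, and every comparison of clones with WT cells below follows the labels. Between 22961 and 23964 symbols were above 0 in a library. The absolute depth is unknown, and depth relative to the WT control library, read from low values, was 0.766, 0.866 and 0.863 with PRL1 siRNA in clone 1, clone 2 and WT cells, against 0.853, 0.915 and 1 with control siRNA. The knockdown library was therefore the shallower one in each line, and the part of depth in the differences below was not tested. All 10 kidney epithelial markers were measured, with a summed level of 2710 to 2842 FPKM with PRL1 siRNA and 2394 to 2757 FPKM with control siRNA. Of these, 5 rose and 4 fell over the 3 lines (90% called, against 39.3% of all tested genes). The rises include PAX8, a kidney transcription factor (0.57 ± 0.05, adjusted p = 0.00166), and the kidney cadherin CDH16 (0.82 ± 0.10, 0.00316). The falls, named after their values were seen, were in the adhesion genes CDH1 (-0.16 ± 0.03, 0.0130) and EPCAM (-0.14 ± 0.04, 0.0325), the keratin KRT18 (-0.22 ± 0.04, 0.0125) and the tight junction gene OCLN (-0.24 ± 0.05, 0.0132). The part of these marker changes in the differences below was not tested. The summed levels of 6 fibroblast and 6 endothelial markers did not exceed 1.25 FPKM in any library, with LUM listed at 0 throughout. The leukocyte markers PTPRC and CD3E were listed at 0 throughout.

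The members covered a wide range of levels. Averaged over the 6 libraries, FOSL2 was the most abundant at 73.2 ± 15.3 FPKM (SD). It was above JUND in 6 of 6 libraries and the highest member in 5, since MYC was higher in clone 2 with control siRNA. JUND (46.2 ± 11.6), MYC (41.6 ± 15.1), JUNB (40.7 ± 7.09) and FOS (37.3 ± 9.42 FPKM) followed, and neighbours in this order exchanged places between libraries. JUND was above MYC in 3 libraries, MYC above JUNB in 4, and JUNB above FOS in 3, so these 4 genes were not separated beyond their spread. JUN (23.5 ± 7.26 FPKM) was above IER2 (22.9 ± 4.45) in 3 libraries, and IER2 was above EGR1 (18.6 ± 3.69) in 5. FOSL1 (6.71 ± 1.90) and FOSB (1.36 ± 0.13 FPKM) were the lowest members in all 6 libraries. Among all tested genes ranked by level, FOSL2 lay between percentiles 88.0 and 93.9, and FOSB between percentiles 3.82 and 5.93.

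**Figure D1:**
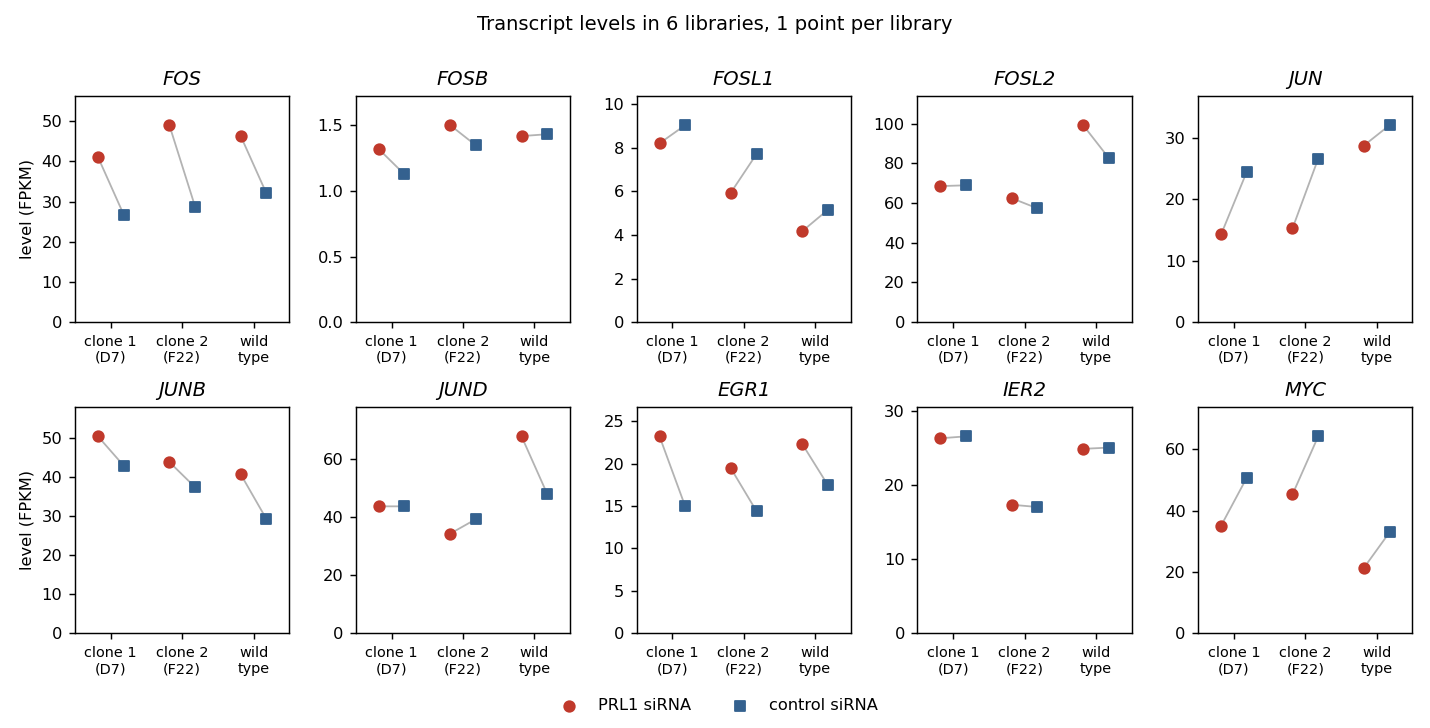
FPKM of each member in the 6 libraries, with each panel on its own scale from 0. Red circles are libraries with PRL1 siRNA, blue squares libraries with control siRNA, and grey lines join the libraries of a line. FOS and EGR1 are higher with PRL1 siRNA in all 3 lines without overlap, and MYC and JUN are lower within each line.

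PRL1 knockdown was followed by opposite movements among the members. Over the 3 lines FOS, EGR1 and JUNB rose, and MYC, JUN and FOSL1 fell, while FOSL2, JUND, FOSB and IER2 did not pass the test. Thus 6 of 10 members passed at an adjusted p under 0.05, against 39.3% of all tested genes. The 3 that rose stand against 17.6% of all genes that were called higher, and the 3 that fell against 21.7% called lower. The median log2 fold change of the 10 members was 0.08, and that of all tested genes was -0.01. A difference of the same sign in all 3 lines was found for 6 members, a share close to the 67.4% among all tested genes. Knockdown and control libraries did not overlap for 2 members, FOS and EGR1, against 28.9% of all tested genes, so neither of these shares is above the background. In RNA from a whole culture, a change in every cell and a change in some of the cells cannot be told apart.

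FOS, the founding subunit of AP-1 and a classical serum response gene, had the largest rise. It was at 41.1 FPKM in clone 1, 49.0 in clone 2 and 46.3 in WT cells with PRL1 siRNA, against 26.8, 28.8 and 32.01 FPKM with control siRNA. Every knockdown library was above every control library, and the ratios within lines were 1.53 in clone 1, 1.70 in clone 2 and 1.45 in WT cells. Over the 3 lines the rise was 0.62 ± 0.05 log2 units (SE, limma with the line as block, adjusted p = 0.00169). The level of FOS among all tested genes lay at percentiles 82.5 to 85.9 with PRL1 siRNA and 72.4 to 78.1 with control siRNA.

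EGR1, a zinc finger transcription factor that is induced through serum response elements in the same way as FOS, also rose. Its levels with PRL1 siRNA were 23.2 FPKM in clone 1, 19.4 in clone 2 and 22.3 in WT cells, against 15.0, 14.4 and 17.4 FPKM with control siRNA. Here too the 3 knockdown libraries lay above the 3 control libraries, by the widest ratio in clone 1 (1.55) and the narrowest in WT cells (1.28). The fitted rise was 0.45 ± 0.06 (adjusted p = 0.00443).

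JUNB, a JUN family subunit that is often a weaker activator than JUN and can oppose it, rose by a smaller amount. It had 50.3, 43.8 and 40.6 FPKM with PRL1 siRNA in clone 1, clone 2 and WT cells, against 42.9, 37.3 and 29.2 FPKM with control siRNA. The groups overlapped, because WT cells with PRL1 siRNA were below clone 1 with control siRNA, but the knockdown library was the higher one in each line. The fitted rise was 0.31 ± 0.06 (adjusted p = 0.0122), with a ratio of 1.39 in WT cells and 1.17 in both clones.

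MYC, a helix-loop-helix leucine zipper factor that pairs with MAX and drives growth genes, fell in a narrow range. It was at 35.1 FPKM in clone 1, 45.2 in clone 2 and 21.3 in WT cells with PRL1 siRNA, against 50.7, 64.2 and 32.9 FPKM with control siRNA. The groups overlapped because the lines differed in their starting level, while the ratios within lines were 0.691, 0.705 and 0.648 in the same order. The fitted change was -0.54 ± 0.04 (adjusted p = 0.00147).

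JUN, the most strongly activating of the JUN proteins, fell over the 3 lines and had its lower ratios in the clones. It had 14.2 and 15.2 FPKM with PRL1 siRNA in clone 1 and clone 2, against 24.5 and 26.6 FPKM with control siRNA. In WT cells it was at 28.7 FPKM with PRL1 siRNA, against 32.02 FPKM with control siRNA, a ratio of 0.896 compared with 0.583 in clone 1 and 0.573 in clone 2. Over the 3 lines the change was -0.55 ± 0.12 (adjusted p = 0.0201). The call was lost without clone 1 (adjusted p = 0.0855) or clone 2 (0.0718) and held without WT cells (0.00512).

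FOSL1, which encodes FRA-1 and accumulates under sustained ERK signalling, fell by 0.24 ± 0.06 (adjusted p = 0.0238). Its levels were 8.21, 5.95 and 4.18 FPKM with PRL1 siRNA in clone 1, clone 2 and WT cells, against 9.04, 7.72 and 5.16 FPKM with control siRNA. The knockdown library was the lower one in each line, although the groups overlapped. The call was lost when any 1 line was left out (adjusted p = 0.0662 without WT cells, 0.0515 without clone 1 and 0.111 without clone 2).

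**Figure D2:**
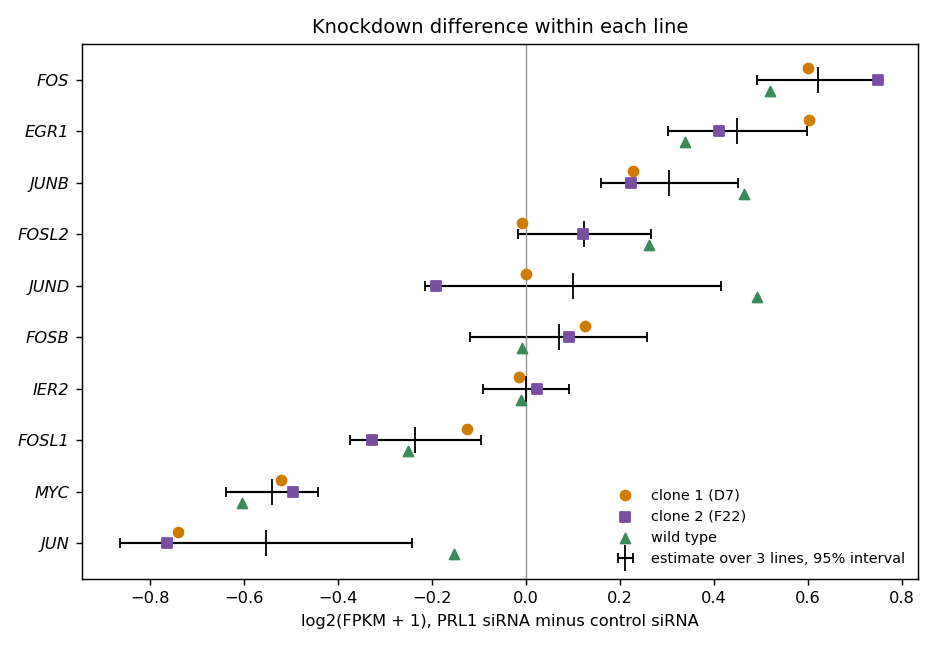
Difference in log2(FPKM + 1), PRL1 siRNA minus control siRNA, for each member. Coloured symbols are the 3 lines and the black mark with bars is the estimate over the lines with its 95% interval from limma. The intervals of FOS, EGR1 and JUNB lie above 0 and those of FOSL1, MYC and JUN below 0, and the WT symbol lies outside the interval for JUN, JUNB and JUND.

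The other members did not pass. FOSL2, which encodes FRA-2, had 68.6, 62.5 and 99.3 FPKM with PRL1 siRNA in clone 1, clone 2 and WT cells, against 69.0, 57.4 and 82.7 FPKM with control siRNA (0.12 ± 0.06, 95% interval -0.02 to 0.27, adjusted p = 0.135). JUND, a subunit that is usually present without stimulation, was at 43.8, 34.4 and 67.9 FPKM with PRL1 siRNA, against 43.8, 39.4 and 48.0 FPKM with control siRNA. The lines differed in direction, since the JUND value was the higher one with PRL1 siRNA in WT cells (ratio 1.41) and the lower one in clone 2 (0.873), and the fitted value was 0.10 ± 0.13 (interval -0.21 to 0.41, adjusted p = 0.556). It was -0.10 in the fit without WT cells. FOSB, the least abundant FOS family gene, ranged from 1.32 to 1.501 FPKM with PRL1 siRNA and from 1.13 to 1.43 FPKM with control siRNA (0.07 ± 0.08, interval -0.12 to 0.26, adjusted p = 0.494). IER2, a nuclear protein of the serum response, was nearly level within each line, at 26.3, 17.4 and 24.9 FPKM with PRL1 siRNA and 26.6, 17.05 and 25.1 FPKM with control siRNA. Its interval of -0.09 to 0.09 log2 units bounds any shift more closely than that of the other 3 (adjusted p = 0.995).

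These calls rest on pairing libraries by line and on few degrees of freedom. Without the line as block, limma called 1 member, FOS (adjusted p = 0.0314), with EGR1 at 0.0674 and MYC at 0.387, and 416 genes in all against 4762. With every gene above 0 tested, FOS (0.0478) and MYC (0.0422) passed. The count over all genes was 2226 without clone 1 and 2741 without clone 2, with 4 members called each time.

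The levels of the FOS and JUN families were then summed, since any FOS protein can pair with any JUN protein. The summed FOS family level was 119 FPKM in clone 1, 119 in clone 2 and 151 in WT cells with PRL1 siRNA, against 106, 95.2 and 121 FPKM with control siRNA. It was higher with PRL1 siRNA in each line, by ratios of 1.13, 1.25 and 1.25. FOSL2 supplied most of this sum in every library, with a share of 57.5%, 52.5% and 65.7% with PRL1 siRNA, against 65.1%, 60.3% and 68.2% with control siRNA. The share of FOS was 34.5%, 41.2% and 30.6% with PRL1 siRNA, against 25.3%, 30.2% and 26.4% with control siRNA. FOS was thus a larger part of its family with PRL1 siRNA in all 3 lines, and FOSL2 a smaller part.

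The JUN family sum did not move in the same way in all lines. It was 108 FPKM in clone 1, 93.4 in clone 2 and 137 in WT cells with PRL1 siRNA, against 111, 103 and 109 FPKM with control siRNA. The ratio was below 1 in the clones (0.976 and 0.904) and 1.26 in WT cells. JUN gave 13.1%, 16.3% and 20.9% of the sum with PRL1 siRNA, against 22.01%, 25.7% and 29.3% with control siRNA. JUNB gave 46.4%, 46.9% and 29.6% with PRL1 siRNA, against 38.6%, 36.2% and 26.7% with control siRNA. The ratio of JUNB to JUN was accordingly 3.53, 2.87 and 1.42 with PRL1 siRNA, against 1.75, 1.41 and 0.911 with control siRNA, and WT cells with control siRNA were the only library with more JUN than JUNB. These sums and shares are descriptions of the libraries and have no test.

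**Figure D3:**
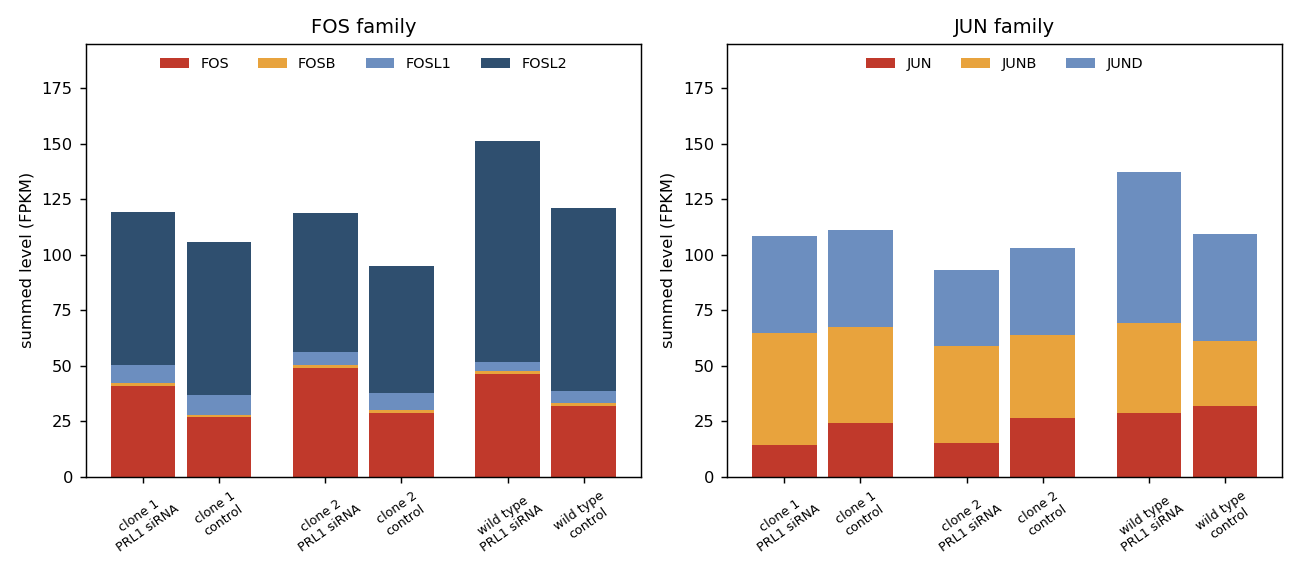
Summed FPKM of the FOS family (left) and of the JUN family (right) in each library, stacked by gene, with the PRL1 siRNA bar left of the control bar for each line. FOSL2 fills most of every FOS family bar, and the JUN segment is smaller with PRL1 siRNA in each line.

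The clones were next considered apart from WT cells. In the clones alone, 5 of 10 members passed, against 33.7% of all tested genes. FOS, EGR1 and JUNB rose (14.5% of all genes were called higher), and MYC and JUN fell (19.2% called lower). JUN changed by -0.75 ± 0.04 (SE, n = 2 clones, limma with the line as block, adjusted p = 0.00609) and FOS by 0.67 ± 0.05 (adjusted p = 0.00668). FOSL1, at -0.23 ± 0.07, did not pass in the clones (adjusted p = 0.0739). Without the line as block, limma called 0 members and 0 genes in the clones, with 4 members and 2575 genes at an unadjusted p under 0.05. The clone libraries are also part of the comparison over 3 lines, so both sets of values share samples.

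The knockdown effects of the clones and of WT cells were compared directly, with the single WT pair assumed to vary like the clones. Of the 10 members, 0 passed this test in limma, and 1 of 12125 genes passed (0.00825%), TXNIP, which is no member and was named after its value was seen. Members with an unadjusted p under 0.05 in limma numbered 3 of 10, JUN, JUND and JUNB, against 1228 of 12125 genes. For JUN, the knockdown effect in the clones minus that in WT cells was -0.60 ± 0.07 log2 units (limma, adjusted p = 0.261), with the smallest unadjusted p of the 3. JUND differed by -0.59 ± 0.10 (adjusted p = 0.428) and JUNB by -0.24 ± 0.06 (adjusted p = 0.471). For FOS, EGR1 and MYC the differences were 0.16 ± 0.09, 0.17 ± 0.10 and 0.10 ± 0.06, with intervals that include 0. A difference between the clones and WT cells was therefore not shown for any member, and with 1 WT pair the intervals are wide.

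The members were also compared between the clones and WT cells within each siRNA, and none passed. With control siRNA, MYC was at 50.7 and 64.2 FPKM in the clones and 32.9 FPKM in WT cells, and FOSL1 at 9.04 and 7.72 FPKM in the clones and 5.16 FPKM in WT cells. Both clones were above WT cells for MYC, FOSL1 and JUNB. Both were below WT cells for FOSL2, JUN, JUND, FOS, FOSB and EGR1, whereas IER2 was above WT cells in clone 1 and below in clone 2. The fitted differences were 0.77 ± 0.22 log2 units for MYC (SE, n = 2 clones, limma without block, adjusted p = 0.320), 0.60 ± 0.21 for FOSL1 (0.365), 0.44 ± 0.14 for JUNB (0.334) and -0.32 ± 0.09 for JUN (0.320). With control siRNA 0 of 10 members passed, as did 0% of all genes, and 4 members and 1632 genes had an unadjusted p under 0.05.

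With PRL1 siRNA the clones again lay above WT cells for MYC, FOSL1 and JUNB and below them for FOSL2, JUN and JUND. JUN was at 14.2 and 15.2 FPKM in the clones and 28.7 FPKM in WT cells, a difference of -0.92 ± 0.09 (adjusted p = 0.219). JUND was at 43.8 and 34.4 FPKM in the clones and 67.9 FPKM in WT cells (-0.79 ± 0.17, adjusted p = 0.242). MYC differed by 0.87 ± 0.22 (adjusted p = 0.271) and FOSL2 by -0.59 ± 0.14 (0.253). Here too 0 members and 0% of all genes passed in limma, and 5 members and 1798 genes had an unadjusted p under 0.05.

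**Figure D4:**
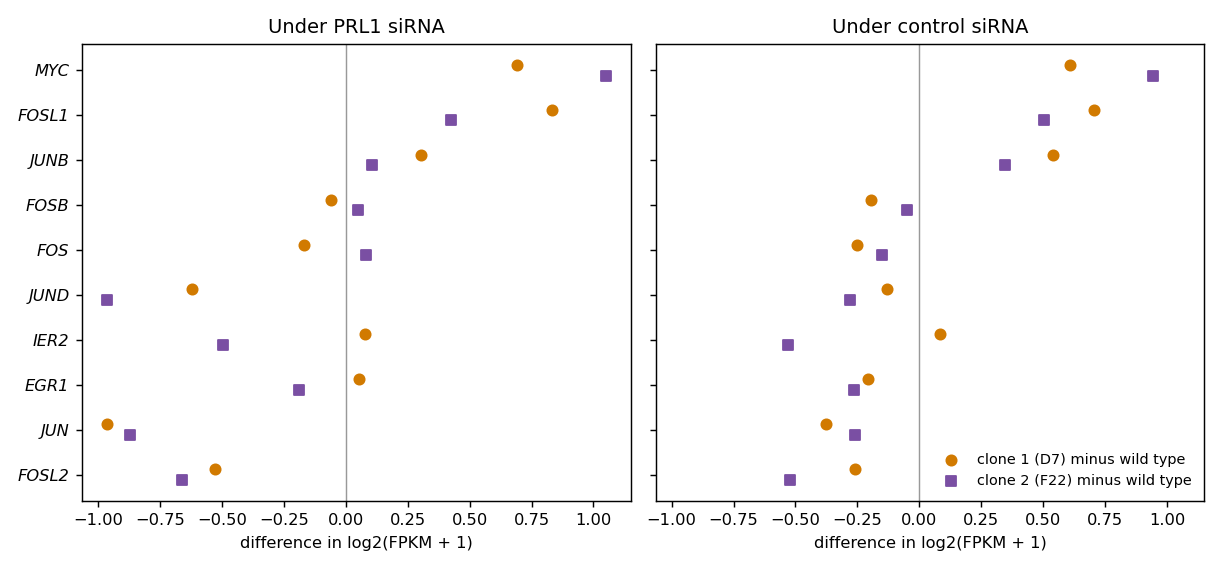
Difference in log2(FPKM + 1) between each clone and WT cells for the 10 members, with PRL1 siRNA (left) and with control siRNA (right). MYC, FOSL1 and JUNB lie right of 0 in both clones and both panels, and JUN and JUND lie further left with PRL1 siRNA.

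Genes that work with the members were counted in lists, with adjusted p-values of the fit over 3 lines in parentheses. Among 14 tested genes of 20 other immediate early genes, 5 rose and 1 fell over the 3 lines, with a median log2 fold change of 0.13, against -0.01 for all tested genes. The share called, 42.9%, was close to the 39.3% of all tested genes. BTG2, an antiproliferative factor, rose by 0.78 ± 0.06 (adjusted p = 0.00165), and the nuclear receptor gene NR4A1 by 0.70 ± 0.11 (0.00759). NR4A1 was at 5.03, 2.81 and 4.95 FPKM with PRL1 siRNA in clone 1, clone 2 and WT cells, against 3.16, 1.64 and 1.93 FPKM with control siRNA. ZFP36, whose protein destabilises messages with AU-rich elements, rose by 0.58 ± 0.08 (0.00486) and CSRNP1, a nuclear factor induced by AXIN1, by 0.24 ± 0.04 (0.00838). The EGR1 relatives EGR2, EGR3 and EGR4 stayed below 0.22 FPKM in every library and were not tested.

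Of 12 other basic leucine zipper partners listed, 11 were in the tables and 8 were tested. Over the 3 lines 0 rose and 1 fell (12.5% called, against 39.3% of all tested genes), with a median of -0.10. The one that fell was JDP2, a repressor that pairs with JUN proteins (-0.31 ± 0.06, adjusted p = 0.0114). MAFG was at -0.21 ± 0.07 (0.0583), BATF2 at 0.17 ± 0.06 (0.0830) and BATF3 at -0.15 ± 0.07 (0.156), none of which passed over the 3 lines. In the clones alone 1 rose and 3 fell, against 33.7% of all genes called in that fit. JDP2 changed there by -0.38 ± 0.05 (limma, adjusted p = 0.0113), MAFG by -0.28 ± 0.07 (0.0498) and BATF2 by 0.24 ± 0.05 (0.0364). MAFF, a small MAF protein gene named after its values were seen, fell by 0.48 ± 0.08 in the clones (0.0183). It was at 2.15, 1.33 and 3.99 FPKM with PRL1 siRNA in clone 1, clone 2 and WT cells, against 3.196, 2.41 and 3.51 FPKM with control siRNA. The MAFF value was thus lower with PRL1 siRNA in both clones and higher in WT cells, and the effect in the clones minus that in WT cells, -0.63 ± 0.13, did not pass (limma, adjusted p = 0.457).

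Upstream, 2 of 14 tested genes of the MAP kinase cascade rose and 3 fell, with a median of -0.01. These are 35.7% of the list, below the 39.3% of all tested genes. The falls were ARAF, a RAF kinase that feeds ERK (-0.57 ± 0.04, adjusted p = 0.00154), and the JNK genes MAPK9 (-0.26 ± 0.04, 0.00682) and MAPK8 (-0.20 ± 0.04, 0.0136), whose products phosphorylate JUN. RPS6KA1, a kinase downstream of ERK, rose by 0.52 ± 0.04 (0.00163). Of 6 serum response and ternary complex factors, 2 rose and 1 fell (50%), with a median of 0.03. ELK4, an ETS partner of serum response factor, fell by 0.37 ± 0.04 (0.00279), while the actin-regulated cofactor MRTFA rose by 0.22 ± 0.04 (0.00812) and ELK1 by 0.16 ± 0.05 (0.0465). MRTFB was at -0.12 ± 0.04 and did not pass (0.0744).

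**Figure D5:**
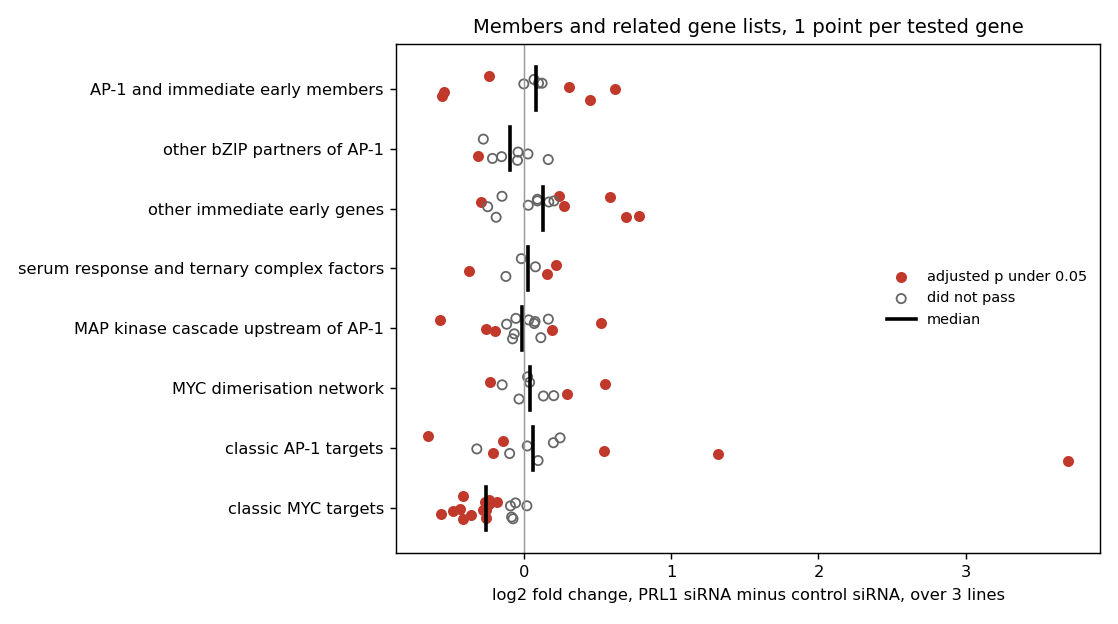
Log2 fold change over the 3 lines, PRL1 siRNA minus control siRNA, of every tested gene in 8 lists. Filled points have an adjusted p under 0.05, open points did not pass, and black bars are list medians. The members spread to both sides of 0, and the filled points of the MYC targets all lie below 0.

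Partners and targets of MYC were also counted. Of 9 tested genes of the MYC dimerisation network, 2 rose and 1 fell (33.3%, against 39.3% of all tested genes), with a median of 0.04. MXD1 (0.55 ± 0.08, adjusted p = 0.00470) and MNT (0.30 ± 0.06, 0.0139), both of which pair with MAX in place of MYC and repress, rose. MGA, a large MAX partner, fell by 0.23 ± 0.05 (0.0155), and MXI1 was at -0.15 ± 0.05 (0.0561). Of 19 tested MYC targets, 14 fell and 0 rose, with a median of -0.26, against 21.7% of all genes called lower. SRM, the spermidine synthase gene, fell by 0.56 ± 0.05 (0.00204), the cyclin gene CCND2 by 0.48 ± 0.05 (0.00199), the ribosome assembly gene RRS1 by 0.415 ± 0.04 (0.00191) and NPM1, a nucleolar chaperone, by 0.36 ± 0.03 (0.00189). Of 12 tested AP-1 targets, 3 rose and 3 fell, with a median of 0.06. These are 50% of the list, against 39.3% of all genes called, 17.6% higher and 21.7% lower. The rises were in the metalloproteinase genes MMP13 (3.70 ± 0.31, 0.00169) and MMP9 (1.32 ± 0.11, 0.00165) and in HBEGF, an EGF receptor ligand gene (0.54 ± 0.07, 0.00474). MMP13 was at 68.7, 410 and 9.05 FPKM with PRL1 siRNA in clone 1, clone 2 and WT cells, against 1.98, 28.8 and 0.492 FPKM with control siRNA. Its groups overlapped because the lines differed in level. PLAU, the urokinase gene, fell by 0.65 ± 0.09 (0.00571).

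The members did not share a common pattern over the 6 libraries. Among their 45 pairs, Pearson's r of log2(FPKM + 1) ran from -0.93 for FOSL2 with MYC to 0.93 for FOSL2 with JUND, and was 0.85 for FOS with EGR1 and -0.81 for JUN with JUNB (n = 6 libraries, which share 3 lines). Outside the members, the named gene most like FOS was PIGC (r = 0.997), which ranged only from 19.8 to 20.5 FPKM with PRL1 siRNA and from 18.1 to 18.8 FPKM with control siRNA. The closest were SH3RF3 for EGR1 (0.990), SELENOO for JUNB (0.995), ENY2 for MYC (0.997) and SNX9 for FOSL1 (0.998). For the members that did not pass they were SHKBP1 for FOSL2 (0.996), UBN1 for JUND (0.995), CREBL2 for FOSB (0.997) and GID8 for IER2 (0.994). Between 28 and 207 tested genes had an r above 0.95 with a given member, so such likeness is common over 6 libraries.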

How the data were processed

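FPKM values were deposited by the authors, 1 for each symbol in each library. Tools named in the submitters' processing notes are HISAT2 2.1.0, Cufflinks 2.2.1 and Cuffdiff. Per the labels' protocols, libraries were stranded mRNA libraries. No source used here gives the genome build, the annotation or whether fragments were counted by strand, so overlapping genes may share fragments. In RefSeq (UU_Cfam_GSD_1.0, used for names and neighbours only, with 38797 of 41401 symbols matched) 1 member, FOSL2, overlaps another gene, a long non-coding RNA that did not exceed 0.27 FPKM.

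Members and lists were chosen with earlier results of these data known. Genes averaging 1 FPKM or more were tested on the log2(FPKM + 1) scale, which understates changes of low genes, using limma 3.58.1 (R 4.3.3) with an intensity trend and Benjamini-Hochberg adjustment over all 12125 genes at 0.05. The knockdown effect was fitted over 6 libraries with the line as block (2 residual degrees of freedom), since both libraries of a line come from the same cells. Their deviations from the treatment means correlated across genes with r from 0.511 to 0.698. Clone-specific effects left 1 residual degree of freedom. Clones and wild type were compared in 4 groups without block. The labels do not call the libraries separate cultures, and the spread behind the p-values may be technical. Named genes were all members, up to 4 genes of each other list by smallest p, and the named gene most correlated with each member. For JUN, the most correlated gene is not reported here. Genes of a list were named whether or not they passed.

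Relative depth came from ratios of values below 0.1 FPKM; 28.4% to 31.4% of these lay within 0.01 log2 units of a ratio between whole numbers up to 4. Fragment counts could not be rebuilt, so no count model or counting interval is given. The fits were tested on simulated data with 200 changed genes among 12125. The planted changes were larger than any member difference in the main fits, so recovery at the sizes of the members was not tested. The fit over 3 lines called 4762 genes in the data, and a setting with that many changed genes was not simulated. In the simulated data the fit over 3 lines recovered 200 of the 200 changed genes and called 19 unchanged genes, which is 8.68% of its calls. The fit in the clones recovered 199 and called 42 unchanged genes, or 17.4% of its calls, and that of the difference between knockdown effects recovered 196 and called 51, or 20.6%, all above the nominal share. The fits of clones against wild type recovered 175 with control siRNA and 158 with PRL1 siRNA, with 8.38% and 7.60% of calls on unchanged genes. Alternatives changed the pseudocount, the filter, the variance trend, the scaling, the block and the libraries used.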

Additional observations from a re-analysis of the deposited data

How the results depend on the processing

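The knockdown effect over 3 lines was called for 4762 genes and 6 members. The paired design matters most: without the replicate block 416 genes and 1 member were called. With no filter on low values 1179 genes and 2 members passed, and without 1 line 2226 to 4172 genes and 4 to 5 members. In the clones 4092 genes and 5 members were called, and 0 genes and 0 members with no filter or without the replicate block. For the difference between the knockdown effects, the count of 1 gene became 2 with a pseudocount of 0.1, 3 with a mean of at least 5 FPKM, 7 without the intensity trend, 18 with robust variance moderation (chosen after seeing the data) and 0 with no filter or without the replicate block, with 0 members each time. Clones against wild type gave 165 genes with control siRNA and 240 with PRL1 siRNA when no filter was used, and 4 with control siRNA without the trend. The causes were not tested. JUN did not pass over 3 lines with robust moderation (adjusted p = 0.0529). Signs reversed only for values that had not passed. After knockdown, leaving out 1 line gave -0.095 to 0.246 for JUND (below 0 without wild type) and -0.0116 to 0.0074 for IER2 (below 0 without clone 2). In clones against wild type, leaving out 1 clone library gave -0.530 to 0.0815 for IER2 with control siRNA and, with PRL1 siRNA, -0.168 to 0.0810 for FOS, -0.0603 to 0.0490 for FOSB, -0.189 to 0.0557 for EGR1 and -0.497 to 0.0774 for IER2. FOSB was not tested at a mean of at least 5 FPKM. FPKM without fragment counts limits what can be said of the precision of FOSB, the lowest member.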
